A study of Mus musculus with 14 samples.

Results

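A set of 9 genes that corticosteroids or the FoxO transcription factors are known to control was followed in the hippocampus of newborn mice. They were chosen by symbol, and all 9 were found among the 36118 genes of the deposited table and passed the filter on low counts, which left 16637 genes to be tested. The members were Nr3c1, Nr3c2, Fkbp5, Tsc22d3, Sgk1, Zbtb16, Pdk4, Plin4 and Cdkn1a. All are protein-coding genes, with Fkbp5, Plin4 and Cdkn1a on chromosome 17, Nr3c1 on 18, Nr3c2 on 8, Zbtb16 on 9, Sgk1 on 10, Pdk4 on 6 and Tsc22d3 on X. The study asked how loss of gasdermin D, the protein that forms pores in the cell membrane during pyroptosis, alters the response of the neonatal brain to high oxygen. RNA was measured in 14 mice, with 1 library per mouse. WT-RA (4 mice) and WT-O2 (4 mice) were wild-type littermates raised in room air or in hyperoxia of 85% O2 from postnatal day 1 to day 14. KO-RA (3 mice) and KO-O2 (3 mice) were homozygous for a CRISPR/Cas9 allele of Gsdmd that lacks a short stretch of the fifth exon, and were exposed in the same way. The KO line was on C57BL/6N. All mice came from matings of heterozygotes and were sampled at postnatal day 15, a day after the exposure ended. The allele is constitutive and not limited to a cell type.

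Glucocorticoids enter cells and bind the glucocorticoid receptor (Nr3c1) and the mineralocorticoid receptor (Nr3c2), which then bind DNA and switch target genes on or off. The hippocampus is known for carrying both receptors, with Nr3c2 concentrated in its pyramidal and granule neurons. Fkbp5, Tsc22d3, Sgk1 and Zbtb16 are standard target genes of the receptors, and Pdk4, Plin4 and Cdkn1a respond both to glucocorticoids and to other inputs, among them FoxO factors for Pdk4 and Cdkn1a. Corticosteroid levels were not among the data analysed here.

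The receptors bind a palindrome, a short site and its reverse complement with a gap between them. RefSeq promoter windows (GRCm38.p6, 250 bases before to 50 after a start site) were matched for 7 of the 9 genes, 15 windows in all. The full element, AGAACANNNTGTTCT searched on both strands, was found in 1 of the 15, an Sgk1 window, and in 0.00913% of all 32851 windows. That window (chr10:21993640-21993939, plus strand) is shown because it holds this element, in capitals, from position -189 to -175 relative to the start site.

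Sgk1 promoter window: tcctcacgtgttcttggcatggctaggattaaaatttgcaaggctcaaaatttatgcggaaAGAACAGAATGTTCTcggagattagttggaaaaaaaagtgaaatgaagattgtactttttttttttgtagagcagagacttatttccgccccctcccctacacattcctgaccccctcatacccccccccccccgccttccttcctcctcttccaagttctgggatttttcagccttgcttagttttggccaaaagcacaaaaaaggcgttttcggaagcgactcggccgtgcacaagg

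The short site alone, TGTTCT on either strand, which the full element contains, was in 4 of the 15 windows and in 19.0% of all windows. All of those 4 were windows of Sgk1 or Tsc22d3, genes with several start sites and so several windows each. The FoxO core TGTTTAC on either strand was in 0 of the 15 and in 3.65% of all windows. These matches describe letters within 300 bases and do not show binding.

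Levels are given as CPM, counts per 1000000 counts after scaling by edgeR's TMM factors, and always in the same order of mice. For WT-RA the order is GSD398, GSD399, GSD400 and GSD401, and for WT-O2 it is GSD404, GSD405, GSD406 and GSD408. For KO-RA it is GSD489, GSD490 and GSD496, and for KO-O2 it is GSD491, GSD494 and GSD495. CPM is not scaled by gene length, so levels are compared between mice and not between genes. A gene was called when edgeR's quasi-likelihood test met 3 limits, namely a log2 fold change of 0.322 or more in size, an unadjusted p under 0.05, and a Benjamini-Hochberg adjusted p (written q, taken over all 16637 genes) under 0.1. Libraries held between 27272270 and 28257496 estimated counts. Gsdmd had 1.47 to 2.23 CPM in the 8 WT mice and 0.817 to 1.5 CPM in the 6 KO mice. In hyperoxia the genotypes did not overlap (1.83 to 2.23 CPM in WT-O2, 1.32 to 1.5 CPM in KO-O2), whereas in room air the highest KO mouse and the lowest WT mouse were both at 1.47 CPM. The total of the gene need not fall when only a short stretch is missing, which was not tested here. The paper reports, without showing the data, that qRT-PCR found no measurable Gsdmd transcripts in KO brains. It also reports that immunostaining did not detect the protein there. The counts here differ from that report on transcripts. The labels of GSD408 conflict, with hyperoxia in its title and room air in its treatment field, and the title was followed. Its summed erythroid markers were 180 CPM, against 212 to 247 CPM in the other WT-O2 mice and 279 to 343 CPM in WT-RA mice. In KO mice those sums overlapped between exposures, at 231 to 411 CPM in KO-RA and 163 to 425 CPM in KO-O2. Depp1, a FoxO target described below, was at least 6.8 CPM in every mouse titled WT-O2, GSD408 included, and at most 2.25 CPM in WT-RA mice. The call of Depp1 for hyperoxia below counts GSD408 as WT-O2, so its level in GSD408 is no separate check on that call. WT and KO mice come from separate ranges of mouse numbers, so genotype and anything that goes with those ranges cannot be told apart.

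One WT-RA mouse stood apart for these genes. GSD398 was the highest of the 4 WT-RA mice for 6 of the 9 members and for 19 of 23 other glucocorticoid-induced genes, whereas it was the highest for 29.8% of all tested genes. It was picked out after its values had been seen, and results that turn on it are given below with and without it.

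**Figure D1:**
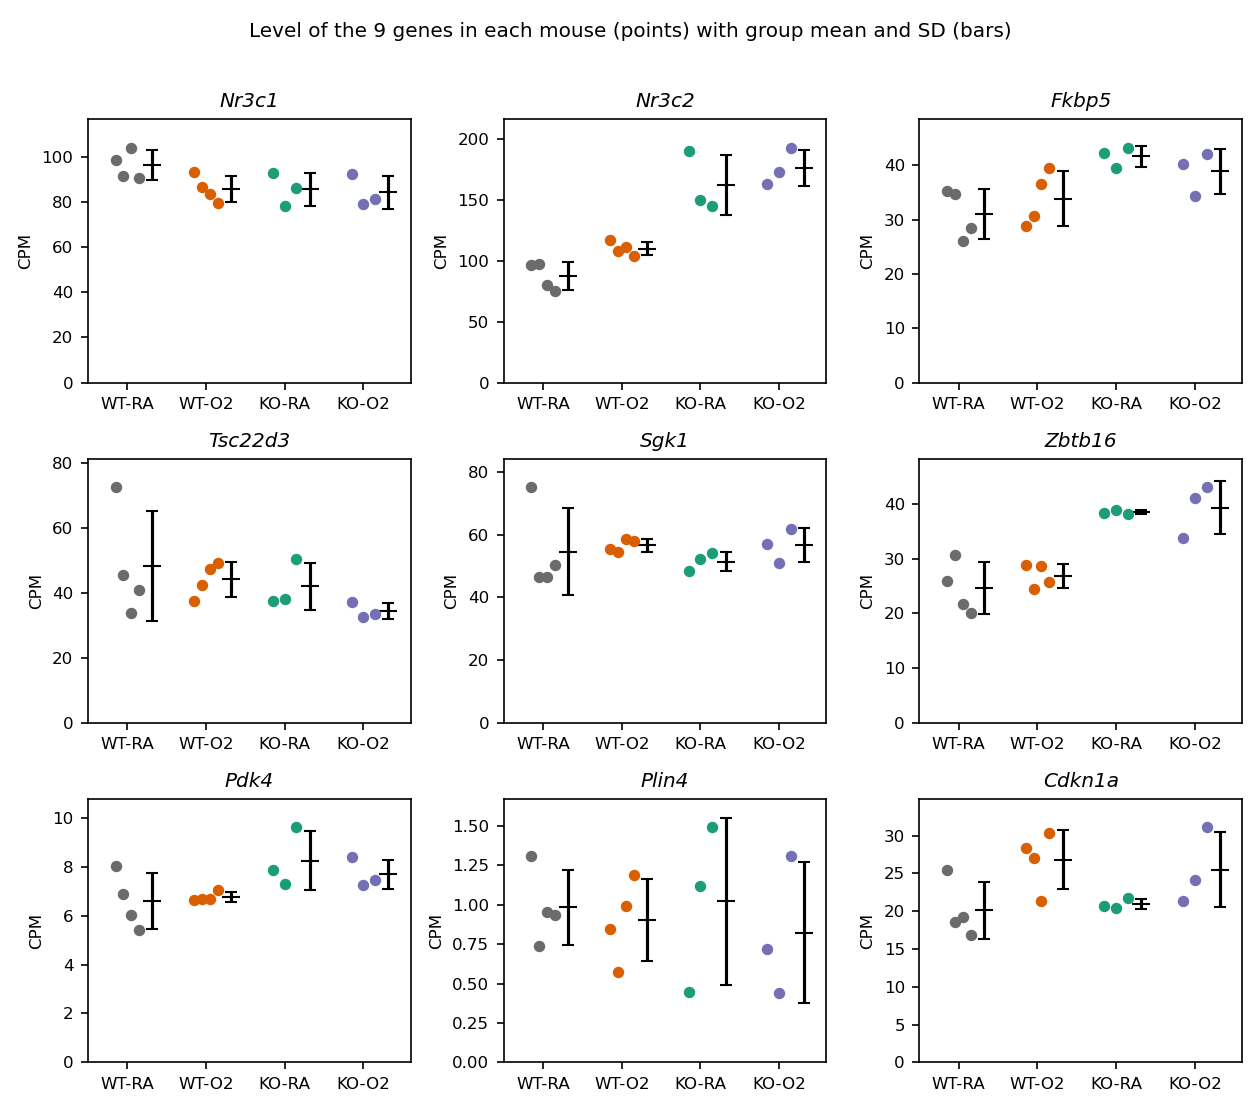
CPM of each gene (y axis, linear, from 0) in each mouse (points) of the 4 groups (x axis), with the group mean and SD as a bar to the right of the points. Nr3c2 and Zbtb16 were higher in every KO mouse than in every WT mouse, and WT-RA mouse GSD398 lies far above its group for Tsc22d3 (72.4 CPM) and Sgk1 (75.2 CPM).

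Nr3c2, the mineralocorticoid receptor, showed the largest difference of the 9 genes, and it went with genotype. Its level was 96.7, 97.6, 80.2 and 75 CPM in WT-RA mice and 117, 108, 111 and 104 CPM in WT-O2 mice. It was 190, 150 and 145 CPM in KO-RA mice and 163, 173 and 193 CPM in KO-O2 mice. The lowest KO mouse thus lay above the highest WT mouse. Nr3c2 was 1.85 times as high in KO-RA as in WT-RA (log2 fold change 0.89, SE 0.106, q = 0.000234) and 1.61 times as high in KO-O2 as in WT-O2 (0.68, SE 0.106, q = 0.00201). Both calls held in 14 of 14 fits that left out 1 mouse, and with GSD408 counted as room air (0.835, q = 0.000255, and 0.66, q = 0.00871). Nr3c2 shares 247 exon bases with Gm10649 on the other strand, and reads from those bases cannot be told apart where strand is not used. In whole tissue, for this gene and those below, fewer cells of a type and less RNA per cell cannot be told apart.

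The difference in Nr3c2 with hyperoxia was smaller. All 4 WT-O2 mice were above all 4 WT-RA mice, with a mean of 110 ± 5.38 CPM (SD, n = 4) against 87.4 ± 11.5 CPM (SD, n = 4). The log2 fold change was 0.33 (SE 0.0995), and the gene was not called (q = 0.187). DESeq2 in place of edgeR did call it (q = 0.065). With GSD408 counted as room air, as its treatment field has it, the value was 0.30 (q = 0.351). In KO mice the groups overlapped, and the log2 fold change was 0.12 (95% interval -0.118 to 0.368, q = 0.997). The difference between these responses was -0.21 on the log2 scale (95% interval -0.528 to 0.117), which the interaction test did not call (q = 1).

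Nr3c1, the glucocorticoid receptor, was called in no comparison. It was at 98.4, 91.4, 104 and 90.3 CPM in WT-RA mice, 93.3, 86.4, 83.6 and 79.5 CPM in WT-O2 mice, 92.6, 78 and 86.2 CPM in KO-RA mice, and 92.4, 78.9 and 81.3 CPM in KO-O2 mice. The groups overlapped throughout, and all 14 mice lay within 1.34-fold of each other. Its log2 fold change for hyperoxia was -0.17 in WT (95% interval -0.323 to -0.00879, q = 0.383) and -0.02 in KO (95% interval -0.206 to 0.157).

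Set against each other within a mouse, the receptor transcripts differed without overlap between WT-RA mice, WT-O2 mice and the KO mice. The ratio of Nr3c2 to Nr3c1 counts, which is not scaled by length and so has meaning only between mice, was 0.768 to 1.07 in WT-RA mice and 1.251 to 1.324 in WT-O2 mice. It was 1.68 to 2.05 in KO-RA mice and 1.77 to 2.37 in KO-O2 mice. The means were 0.913 ± 0.138 (SD, n = 4), 1.28 ± 0.0367 (SD, n = 4), 1.89 ± 0.187 (SD, n = 3) and 2.11 ± 0.31 (SD, n = 3). GSD408 had a ratio of 1.306, so that WT-RA and WT-O2 would overlap if it were counted as room air. The ratio was chosen after the values were seen and was not tested.

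Zbtb16, a zinc finger repressor that glucocorticoids strongly induce in many tissues, also went with genotype. Its level was 25.9, 30.7, 21.7 and 20 CPM in WT-RA mice and 28.8, 24.4, 28.7 and 25.7 CPM in WT-O2 mice. It was 38.5, 39 and 38.3 CPM in KO-RA mice and 33.9, 41.1 and 43.1 CPM in KO-O2 mice. Again every KO mouse was above every WT mouse, and the 3 KO-RA mice were within a coefficient of variation of 0.863%. The gene was 1.57 times as high in KO-RA as in WT-RA (log2 fold change 0.65, SE 0.123, q = 0.00413) and 1.46 times as high in KO-O2 as in WT-O2 (0.55, SE 0.123, q = 0.0159). Both calls held in 14 of 14 fits that left out 1 mouse, and with GSD408 counted as room air (0.64, q = 0.00273, and 0.53, q = 0.0391). Hyperoxia gave log2 fold changes of 0.13 in WT (95% interval -0.116 to 0.379) and 0.03 in KO (95% interval -0.251 to 0.308), neither of them called.

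Fkbp5 encodes a co-chaperone that lowers the receptor's affinity for its hormone and is itself induced by the receptor. It was at 35.3, 34.7, 26 and 28.4 CPM in WT-RA mice and at 42.3, 39.6 and 43.3 CPM in KO-RA mice, without overlap. The log2 fold change was 0.42 (SE 0.122, 1.34-fold, q = 0.0399), and the gene was called. The call was lost without KO-RA mouse GSD489 (q = 0.12) or without KO-RA mouse GSD496 (q = 0.114), while the log2 fold change stayed between 0.35 and 0.50 whichever mouse was left out. With GSD408 counted as room air the call held (0.35, q = 0.0793). Under hyperoxia Fkbp5 was at 28.8, 30.6, 36.6 and 39.6 CPM in WT-O2 mice and 40.3, 34.3 and 42.1 CPM in KO-O2 mice. These groups overlapped, and the log2 fold change of 0.20 was not called (95% interval -0.0623 to 0.46, q = 0.429). Whether the genotype difference depended on exposure was not resolved (difference -0.23, 95% interval -0.596 to 0.144).

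Tsc22d3, also known as Gilz, an anti-inflammatory target of glucocorticoids, was called in no comparison, and its values rested heavily on 1 mouse. It was at 72.4, 45.5, 33.6 and 40.9 CPM in WT-RA mice, 37.4, 42.4, 47.4 and 49.2 CPM in WT-O2 mice, 37.5, 38 and 50.3 CPM in KO-RA mice, and 37, 32.6 and 33.3 CPM in KO-O2 mice. GSD398, with 72.4 CPM, was the highest of the 14. Hyperoxia gave a log2 fold change of -0.12 in WT with that mouse and 0.15 without it. All 3 KO-O2 mice were below all KO-RA mice and all WT-O2 mice, but the log2 fold changes of -0.29 (q = 0.997) and -0.36 (q = 0.36) were not called. With only KO-O2 and WT-O2 in the fit, the last was called (log2 fold change -0.35, q = 0.0464). It was also called with GSD398 and GSD496 left out together (-0.354, q = 0.0727), a fit chosen after seeing the data.

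Sgk1, a serum and glucocorticoid-regulated kinase that acts on ion channels and phosphorylates FoxO factors, was the member whose promoter window held the full receptor element. Its level was 75.2, 46.5, 46.4 and 50.5 CPM in WT-RA mice and 55.5, 54.6, 58.8 and 58 CPM in WT-O2 mice. It was 48.4, 52.2 and 54.1 CPM in KO-RA mice and 57.2, 51.1 and 62 CPM in KO-O2 mice. Apart from GSD398, the WT-O2 mice all exceeded the WT-RA mice. The log2 fold change for hyperoxia in WT was 0.05 with GSD398 (95% interval -0.213 to 0.321) and 0.25 without it (q = 0.102), and neither fit called the gene. The KO-O2 and WT-O2 means were 56.8 ± 5.42 CPM (SD, n = 3) and 56.7 ± 2.02 CPM (SD, n = 4), and the interval of their difference ran from -0.288 to 0.289 on the log2 scale.

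Pdk4, the kinase that switches off pyruvate dehydrogenase and so spares glucose, was at 8.04, 6.9, 6.04 and 5.42 CPM in WT-RA mice and 6.63, 6.67, 6.66 and 7.05 CPM in WT-O2 mice. In KO-RA mice it was at 7.87, 7.28 and 9.61 CPM, and in KO-O2 mice at 8.38, 7.26 and 7.46 CPM. The KO-O2 mice were all above the WT-O2 mice, whereas KO-RA and WT-RA overlapped at GSD398. The log2 fold change was 0.32 in room air (95% interval 0.0392 to 0.606, q = 0.151) and 0.19 in hyperoxia (95% interval -0.0943 to 0.474, q = 0.497), and neither was called. Without GSD398 the room-air difference was called (0.44, q = 0.0424). Over both exposures q was 0.0745, but the fold of 1.19 missed the threshold.

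Plin4, a lipid droplet coat protein that glucocorticoids induce in fat and muscle, was near the lower limit of measurement, with 12 to 42 counts per library. It ranged from 0.74 to 1.31 CPM in WT-RA, 0.574 to 1.19 in WT-O2, 0.446 to 1.49 in KO-RA and 0.44 to 1.31 in KO-O2. All groups overlapped. The intervals were wide, from -0.933 to 0.682 on the log2 scale for hyperoxia in WT and from -0.806 to 0.919 between KO-RA and WT-RA. Plin4 shares 17 exon bases with Hdgfl2 on the other strand.

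Cdkn1a, which encodes the cell cycle inhibitor p21, had the largest fold change of the 9 for hyperoxia in WT. It was at 25.5, 18.6, 19.3 and 16.9 CPM in WT-RA mice and at 28.4, 27.1, 21.3 and 30.4 CPM in WT-O2 mice. In KO mice it was at 20.7, 20.4 and 21.7 CPM in room air and at 21.4, 24.1 and 31.1 CPM in hyperoxia. The groups overlapped in WT and in KO. The log2 fold change was 0.41 in WT (SE 0.139, q = 0.232) and 0.29 in KO (SE 0.16, q = 0.997), and the mean of both was 0.35 (95% interval 0.12 to 0.58, q = 0.224). None of these was called. Without GSD398 the gene was called in WT (0.55, q = 0.0639) and over both genotypes (0.42, q = 0.0696), and DESeq2 called it over both genotypes with all mice (q = 0.0758). With GSD408 counted as room air the value in WT was 0.21 (q = 0.733). The interaction was -0.13 (95% interval -0.579 to 0.324). Cdkn1a shares 273 exon bases with an unnamed transcript on the other strand.

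**Figure D2:**
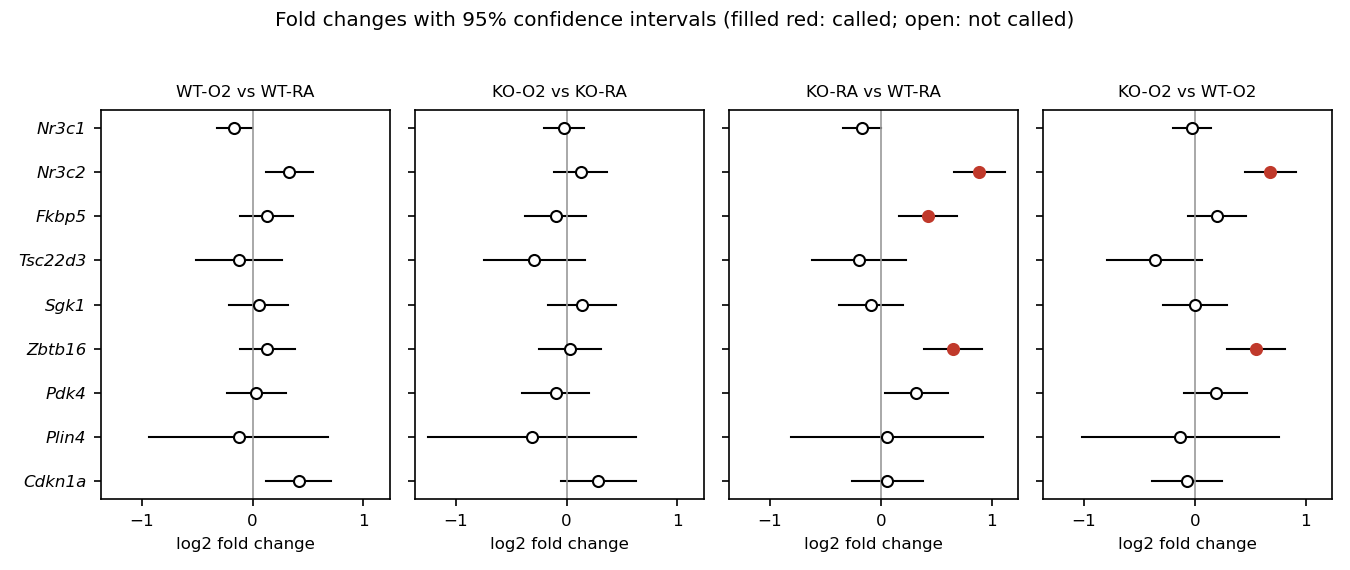
Log2 fold change (x axis) of each gene (y axis) in the 4 comparisons of 2 groups, with 95% confidence intervals from edgeR, filled red where the gene was called. No gene was called for hyperoxia in WT or KO, Nr3c2, Zbtb16 and Fkbp5 were called in room air between KO and WT, and Nr3c2 and Zbtb16 in hyperoxia, always with KO higher.

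Counted together, the 9 genes gave no call for hyperoxia and calls in 1 direction for genotype. For hyperoxia in WT, edgeR called 0 of 9 members, against 0.643% of all tested genes. An unadjusted p below 0.05 was found for 3 members and for 12.2% of all genes. DESeq2 called 1. The shares of all genes called or below an unadjusted p are edgeR's, here and below. None is given for DESeq2, so its counts have no share to be set against. One member, Nr3c2, did not overlap between the groups, as was so for 5.99% of all genes. In KO, 0 of 9 were called by edgeR and by DESeq2, against 0.012% of all genes called by edgeR. None had an unadjusted p below 0.05, against 4.86% of all genes, and 1 member did not overlap, against 11.8%. Over both genotypes edgeR called 0 of 9 (0.337% of all genes), with 2 below an unadjusted p of 0.05 (11.8% of all genes), and DESeq2 called 1. The interaction was called for 0 of 9 members and for 0% of all genes. No member was below an unadjusted p of 0.05 there, against 4.05% of all genes.

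Between KO-RA and WT-RA, 3 of 9 were called, against 10.4% of all genes, and all 3 were higher in KO, against 3.75% of all genes called and higher. The same 3 did not overlap between the groups, which held for 19.6% of all genes. Between KO-O2 and WT-O2, 2 of 9 were called, against 6.86% of all genes, both of them higher in KO, against 2.51%. In that comparison 4 members, Nr3c2, Zbtb16, Tsc22d3 and Pdk4, did not overlap, against 19% of all genes. Over both exposures 2 of 9 were called, against 12% of all genes and 4.11% called and higher. Fkbp5 had q = 0.0205 there but a fold of 1.24, or 0.31 on the log2 scale, just under the limit. DESeq2 called it (0.323, q = 0.00353), as did edgeR with DESeq2 size factors, without the filter on low counts, and in 6 of 14 fits that left out 1 mouse. The median log2 fold change of the members was 0.06 in room air and 0.00071 in hyperoxia, beside -0.0067 and -0.0089 for all genes. Every group of mice enters both a hyperoxia and a genotype comparison, so the comparisons are not independent of each other.

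Markers of cell types and of neighbouring brain regions moved with genotype as well. Of all tested genes, 10.4% were called between KO-RA and WT-RA and 6.86% between KO-O2 and WT-O2. Of 10 hippocampal pyramidal and granule neuron markers, 9 were called higher in KO for room air and 4 for hyperoxia. Their summed CPM was 669 to 958 in WT-RA, 866 to 1030 in WT-O2, 1320 to 1640 in KO-RA and 1380 to 1600 in KO-O2. No KO mouse overlapped a WT mouse. All 8 striatal markers were called lower in both genotype comparisons, with sums of 385 to 917 CPM in WT mice of both exposures and 150 to 254 CPM in KO mice. Of 8 thalamic markers 5 were lower in room air and 4 in hyperoxia, with sums of 141 to 773 CPM in WT-RA and 141 to 164 CPM in KO-RA. Of 10 oligodendrocyte markers 10 and 6 were lower, from 7960 to 19900 CPM in WT-RA to 3420 to 5510 CPM in KO-RA. Of 8 astrocyte markers 2 were called higher in each comparison, and their sums were 3840 to 4420 CPM in all WT mice and 4510 to 5260 CPM in all KO mice, without overlap. None of these markers was at 0 in any library except Gbx2, a thalamic marker, in 1. The part of these marker differences in the higher Nr3c2, Zbtb16 and Fkbp5 of KO mice was not tested.

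**Figure D3:**
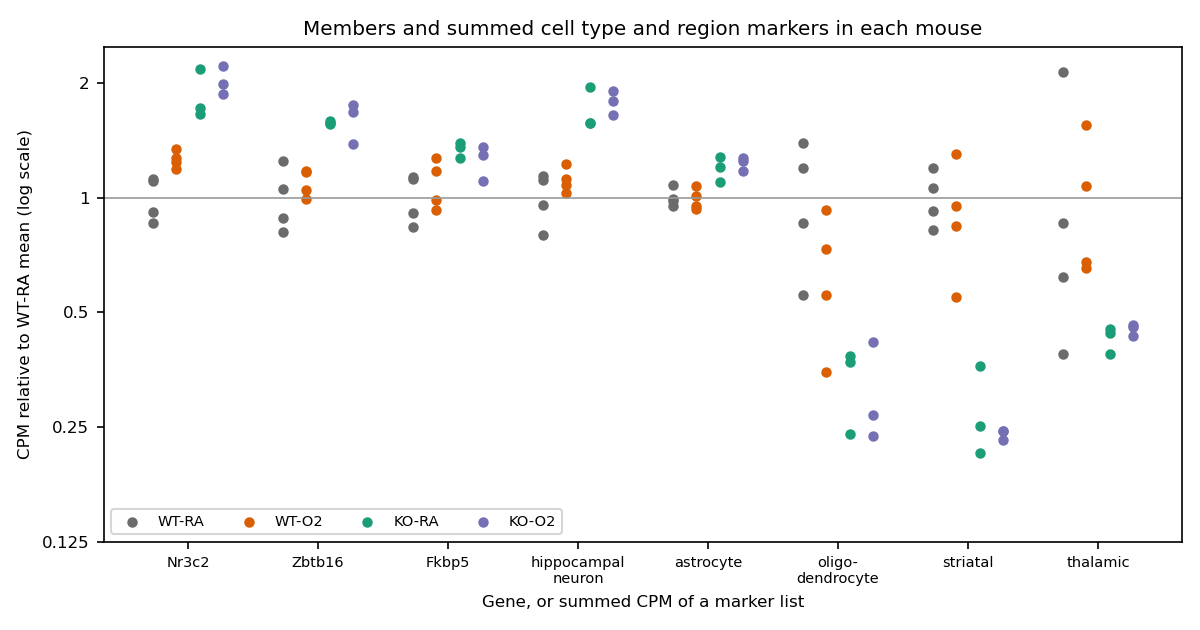
CPM of Nr3c2, Zbtb16 and Fkbp5 and summed CPM of 5 marker lists in each mouse (points, coloured by group), relative to the WT-RA mean (y axis, log scale). Nr3c2, Zbtb16 and the hippocampal neuron markers were higher in all KO mice than in all WT mice, while the striatal markers were lower in all KO mice.

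In the hyperoxia comparisons within a genotype edgeR called no gene of any of the 11 marker lists, while DESeq2 called 1 oligodendrocyte precursor marker and 1 mural marker lower in WT and none in KO. Over both genotypes edgeR called the mural marker Abcc9 lower (-0.47, q = 0.0743). In WT, oligodendrocyte markers had a median log2 fold change of -0.63 and erythroid markers of -0.60, with 2 of 10 and 4 of 5 genes at an unadjusted p below 0.05. Hippocampal neuron markers had a median of 0.14 there, with 2 of 10 at an unadjusted p below 0.05. Oligodendrocyte precursor markers had a median of -0.32, with 4 of 6 below that limit, and endothelial markers one of -0.12, with 4 of 8. Below it were also 2 of 8 astrocyte and 1 of 7 mural markers, and none of the microglia, choroid plexus, striatal or thalamic lists. In KO 2 of 7 mural and 1 of 8 endothelial markers reached an unadjusted p below 0.05, and no gene of the other lists did. Among all genes 12.2% did so in WT and 4.86% in KO. The part of these lists in the higher Nr3c2 and Cdkn1a values of WT-O2 mice was not tested.

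The genes most like the called members over the 14 mice, by Pearson's r of log2 CPM among genes of at least 1 mean CPM, were led for Nr3c2 by Sh3bp5 (r = 0.984), Smoc2 (r = 0.982) and Gria1 (r = 0.982), the last of which encodes an AMPA receptor subunit. For Zbtb16 they were Rtl3 (r = 0.959), Dusp4 (r = 0.949) and Iqgap2 (r = 0.945), and for Fkbp5 they were Sec14l2 (r = 0.914), Hspb8 (r = 0.904) and Lcat (r = 0.903). The mice fall into 2 genotypes that differ in many genes, so these values describe a shared pattern over groups and were not tested.

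Within groups, several members were high in the same mice. GSD398 was the highest WT-RA mouse for Fkbp5, Tsc22d3, Sgk1, Pdk4, Plin4 and Cdkn1a, and the lowest for none of the 9. Among the other glucocorticoid-induced genes, Rasd1 was 41.6 CPM in GSD398 and 26.9, 15.9 and 20.8 CPM in the other WT-RA mice. The same mouse had the highest oligodendrocyte (19900 CPM), choroid plexus (2430 CPM), striatal (840 CPM), thalamic (773 CPM) and hippocampal neuron (958 CPM) sums of its group. Its astrocyte (4420 CPM), oligodendrocyte precursor (752 CPM), endothelial (271 CPM) and mural (336 CPM) sums were also the highest. Its microglia (372 CPM) and erythroid (332 CPM) sums were not. The part of these sums in its high values was not tested. KO-RA mouse GSD496 was the highest of its group for 6 of 9 members and 10 of 23 other glucocorticoid-induced genes, against 30.7% of all genes. KO-O2 mouse GSD495 was the highest for 6 of 9 members, against 30.3% of all genes, but for only 8 of the 23, while GSD491 was the highest for 12 of the 23 and 3 of 9 members, against 36%. GSD494 was the lowest KO-O2 mouse for 6 of 9 members, against 37.9% of all genes. Choroid plexus sums set that mouse (111 CPM) and KO-RA mouse GSD489 (42.3 CPM) apart from the other 12 mice, which ranged from 932 to 3430 CPM, and the part of this in the ranks of the KO mice was not tested. WT-O2 mouse GSD408 was the highest for 5 of 9 and 13 of 23, against 31.1%. These mice were picked out after their values were seen.

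**Figure D4:**
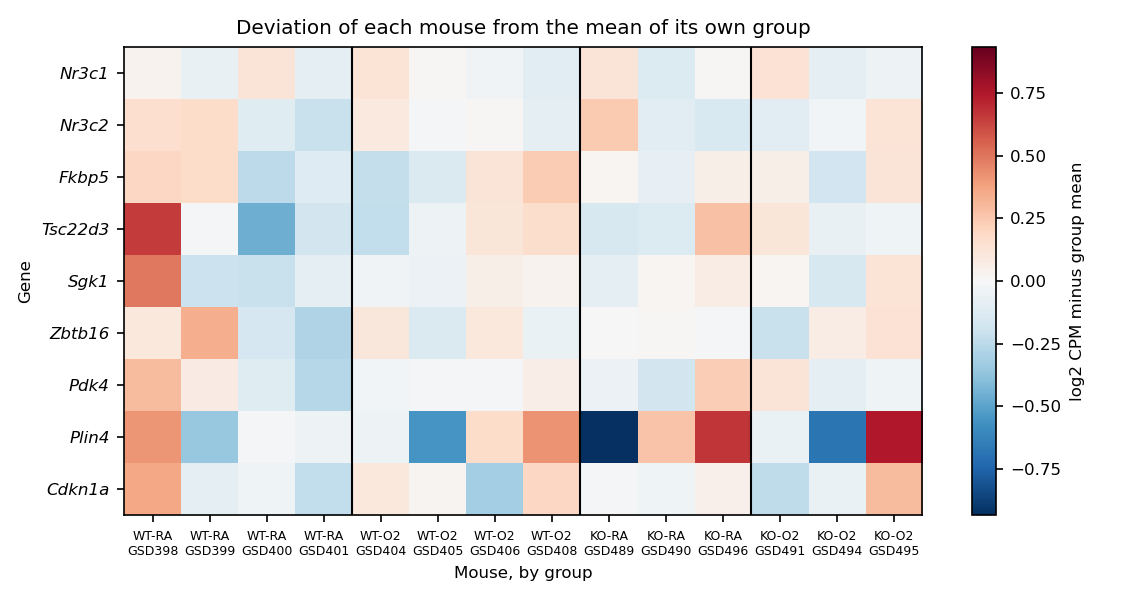
Log2 CPM of each gene (rows) in each mouse (columns) minus the mean of its own group, red where higher and blue where lower, with lines between the groups. GSD398 was above its group mean for all 9 genes, and Plin4, with 12 to 42 counts per library, varied most within groups.

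The rest of the glucocorticoid pathway was followed in lists that hold no member. Among all tested genes, 10.4% were called for genotype in room air and 6.86% in hyperoxia. For hyperoxia, 0.643% were called in WT and 0.012% in KO, and 12.2% and 4.86% had an unadjusted p below 0.05. Of 13 tested chaperones, coregulators and steroid enzymes, 1 was called for genotype and 0 for hyperoxia in WT or KO (1 in WT and 3 in KO at an unadjusted p below 0.05, and 0 by DESeq2). The called gene was Hsd11b1, which regenerates active glucocorticoid inside cells. It was at 18.9 ± 2.11 CPM in WT-RA (SD, n = 4), 18.8 ± 2.88 in WT-O2 (SD, n = 4), 25.3 ± 1.23 in KO-RA (SD, n = 3) and 25.5 ± 1.9 in KO-O2 (SD, n = 3). The log2 fold changes were 0.42 (SE 0.113, q = 0.0283) in room air and 0.44 (SE 0.113, q = 0.0329) in hyperoxia, and the calls held in 13 and 12 of 14 fits that left out 1 mouse. The first was lost without GSD489 (q = 0.106), and the second without GSD491 (q = 0.103) or GSD495 (q = 0.148).

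Of 23 other glucocorticoid-induced genes, edgeR called 0 for hyperoxia in WT and 0 in KO, while DESeq2 called 2 in WT and 0 in KO. No share of all genes is given for DESeq2. An unadjusted p below 0.05 was found for 4 and 2 of the 23, against 12.2% and 4.86% of all genes. Between KO-RA and WT-RA 4 were called higher and 2 lower, against 10.4% of all genes called in either direction. The median log2 fold change of the list was 0.22 beside -0.0067 for all genes. Between KO-O2 and WT-O2 3 were called higher and 1 lower, against 6.86% of all genes, with a median of 0.18. The differences thus ran in both directions. Bcl6, a transcriptional repressor, was higher in both (0.56, q = 0.0133, and 0.54, q = 0.0247). Cebpd, a C/EBP transcription factor (0.63, q = 0.0449), Gpd1, a glycerol phosphate dehydrogenase (0.43, q = 0.0903), and Glul, the glutamine synthetase of astrocytes (0.34, q = 0.0111), were higher in KO-RA, and the first pair also in KO-O2 (0.65, q = 0.0532, and 0.47, q = 0.0927). Dusp1, the MAP kinase phosphatase, was lower in both (-0.69, q = 0.00495, and -0.46, q = 0.0625), and Arl4d, a small GTPase, was lower in KO-RA (-0.77, q = 0.0161). Calls in room air held in 14 of 14 fits that left out 1 mouse for Bcl6, Dusp1 and Arl4d, in 13 for Glul (lost without GSD400, 0.30), in 11 for Cebpd (lost without GSD401, GSD489 or GSD496, with q up to 0.144) and in 4 for Gpd1 (q up to 0.211), and in hyperoxia in 14 for Bcl6, 10 for Cebpd, 8 for Dusp1 and 3 for Gpd1, with q up to 0.221, 0.217 and 0.242 for the last 3 genes.

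On the FoxO side, edgeR called 2 of 24 other FoxO targets higher with hyperoxia in WT mice, against 0.643% of all genes called. DESeq2 called 2 higher and 2 lower, but that share is edgeR's and none is given for DESeq2. The list was chosen with earlier results of these data known, so its count is no test of FoxO activity. Of the 24, 8 had an unadjusted p below 0.05, against 12.2% of all genes, and 7 had a positive log2 fold change. Depp1, a FoxO target that affects autophagy, rose from 1.61 ± 0.613 CPM in WT-RA (SD, n = 4) to 9.09 ± 2.71 CPM in WT-O2 (SD, n = 4), a log2 fold change of 2.50 (SE 0.405, q = 0.0284) that was called in 14 of 14 fits that left out 1 mouse. The values of Depp1 and Txnip here count GSD408 as hyperoxia, and the call of Depp1 held without that mouse. In KO mice Depp1 was 1.45 ± 1.32 CPM in room air (SD, n = 3) and 7.87 ± 0.813 CPM in hyperoxia (SD, n = 3). Its log2 fold change there was 2.44, not called by edgeR (q = 0.271), and the interaction was -0.06 (q = 1). Over both genotypes Depp1 was called (2.47, q = 0.0033). Txnip, which binds thioredoxin and limits glucose uptake, rose from 24.4 ± 6.94 to 39 ± 1.84 CPM in WT (SD, n = 4 each; log2 fold change 0.67, SE 0.154, q = 0.0872). That call held only in the 3 of 14 fits that left out GSD398, GSD489 or GSD494. Over both genotypes it was 0.65 (q = 0.0397), and it held in 10 of 14. In KO mice 0 of the 24 were called by edgeR, 3 had an unadjusted p below 0.05 (4.86% of all genes), and DESeq2 called 1. The list's median log2 fold change was -0.068 in WT and -0.015 in KO, beside -0.0058 and -0.002 for all genes.

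For genotype, Sesn3, a sestrin, was lower in room air (-0.37, q = 0.00779) and in hyperoxia (-0.40, q = 0.00699), as was Cited2, a CBP/p300-binding regulator (-0.48, q = 0.00406, and -0.43, q = 0.0123). The room-air call of Sesn3 missed the fold limit without GSD401 (-0.316) or GSD490 (-0.31). Fbxo32, an F-box ubiquitin ligase known as atrogin-1, was lower in room air (-1.14, q = 0.000754), and Txnip was higher there (0.46, q = 0.0942), a call that held in 3 of 14 fits that left out 1 mouse. Of the 4 FoxO factors, Foxo6 was higher in KO in both exposures (0.61, q = 0.00277, and 0.43, q = 0.0282), the second lost without GSD495 (q = 0.134). Foxo1, Foxo3 and Foxo4 were not called in either, and none of the 4 was called for hyperoxia by edgeR. Of the 4, 3 had an unadjusted p below 0.05 for hyperoxia in WT and 1 in KO, against 12.2% and 4.86% of all genes. DESeq2 called 1 of the 4 in WT, with no share of all genes given for it.

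**Figure D5:**
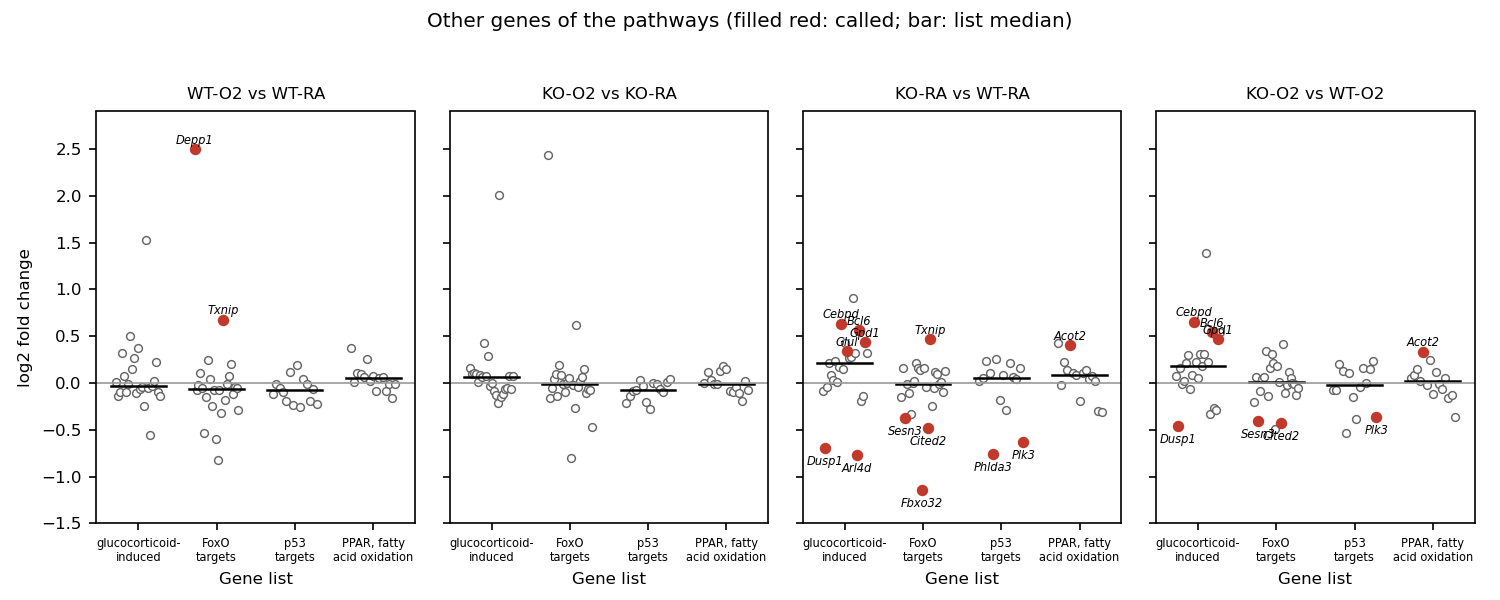
Log2 fold change (y axis) of the genes of 4 lists (x axis) in the 4 comparisons of 2 groups, with called genes filled red and named and the list median as a bar. Depp1 and Txnip were called for hyperoxia in WT. Calls for genotype ran in both directions in the glucocorticoid-induced list. In the FoxO list 1 was higher and 3 lower in room air, and 0 higher and 2 lower in hyperoxia.

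Lists that bear on Cdkn1a and Pdk4 through other regulators gave no calls for hyperoxia within a genotype and some for genotype. For genotype, 10.4% of all genes were called in room air and 6.86% in hyperoxia. For hyperoxia, 12.2% of all genes in WT and 4.86% in KO had an unadjusted p below 0.05. Of 14 tested p53 targets, 0 were called for hyperoxia in WT or KO by edgeR or DESeq2, with 1 at an unadjusted p below 0.05 in each. For genotype in room air Phlda3 (-0.76, q = 0.019) and Plk3 (-0.63, q = 0.00413) were lower, and Plk3 was also lower in hyperoxia (-0.36, q = 0.093). Of 15 PPAR targets and fatty acid oxidation genes, 0 were called for hyperoxia by either tool, with 1 in WT and 0 in KO at an unadjusted p below 0.05. Acot2, a mitochondrial thioesterase, was higher in KO in both exposures (0.40, q = 0.0283, and 0.33, q = 0.0915). Among 15 paralogs of the members, Sgk2 (-1.20, q = 0.0341) and Sgk3 (-0.33, q = 0.0975) were lower in KO-RA than in WT-RA, and 0 were called for hyperoxia by either tool, with 0 in WT and 1 in KO at an unadjusted p below 0.05. The calls held in 14 of 14 fits that left out 1 mouse for Phlda3 and Plk3 in room air, in 13 for Sgk2 and for Acot2 in room air (each lost without GSD489, q = 0.148 and 0.102), in 4 for Plk3 and Acot2 in hyperoxia (q up to 0.258 and 0.335), and in 3 for Sgk3 (q up to 0.365). Over all 7 lists, 14 of the 17 calls in room air and 7 of the 10 in hyperoxia between KO and WT also held under both other scalings, and no called gene turned its direction under a scaling or without a mouse.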

How the data were processed

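Hippocampal RNA of 14 mice was sequenced, 1 library per mouse. Per the labels and methods, the authors gave estimated counts for each gene, which came from pseudoalignment with Kallisto against GRCm39 and from tximport, which sums transcripts to genes. Versions and the scaling in tximport are not given in the sources used here, nor whether strand was used. In each library 41 to 43.2 percent of the deposited values are not whole numbers, so they were rounded. Symbols were assigned to 35825 of 36118 gene identifiers from a reference table, and exon overlaps were read from GENCODE vM21 (GRCm38).

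Counts were filtered with filterByExpr, normalized by TMM and fitted in edgeR 4.0.16 under R 4.3.3, all 14 mice together, by a model of group means that held no covariate. Tests were two-sided quasi-likelihood F-tests over 16637 genes with Benjamini-Hochberg adjustment. The p-values set the difference between groups against the spread between mice within groups. That spread was estimated from all 4 groups together and drawn towards that of other genes. Log2 CPM used a prior count of 2. Thresholds follow the study's methods, and DESeq2 (here 1.42.0), which the study used, was an alternative. The edgeR fit was also run on simulated counts in which every gene had the same spread and only WT-O2 was changed. That setting is simpler than these data and did not cover the genotype comparisons. Other alternatives were 2 scalings, 2 filters, fits of only the groups compared, a fold of 1.5, a q of 0.05, GSD408 as room air, each mouse left out, and GSD398 and GSD496 left out together, the last chosen after seeing the data.

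The members and gene lists were chosen with earlier results of these data known. Named genes are all 9 members, up to 6 called genes per pathway list and comparison with the smallest q, and the 3 genes most like each called member. Of the lists, Hsd11b2, Tat and Gdf15 did not pass the filter. The library totals of 27272270 to 28257496 gave 12 to 5140 counts per member and mouse.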

Additional observations from a re-analysis of the deposited data

Results flagged for a closer look

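2 single mice stood apart from the other 3 of their group by Dixon's criterion, in which the gap to the nearest mouse is divided by the range of the group. Sgk1 in WT-RA mouse GSD398 was 75.2 CPM, with a ratio of 0.855, and Pdk4 in WT-O2 mouse GSD408 was 7.05 CPM, with a ratio of 0.914, both above the 95% critical value for 4 mice. Chance alone marks about 1 in 20 groups, and 20 groups of 4 mice were examined. Pdk4 spanned 6.63 to 7.05 CPM in WT-O2, so the second case rests on a narrow range among the other 3 mice. GSD408 is also the mouse whose treatment field gives room air.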

How the results depend on the processing

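The calls of Nr3c2 and Zbtb16 for genotype in each exposure and over both were kept under every alternative, except that Zbtb16 between KO-O2 and WT-O2 missed a fold of 1.5, which left 1 member called there. Fkbp5 between KO-RA and WT-RA was lost at a fold of 1.5 and without GSD489 or GSD496. No paired analysis was possible because mice carry individual numbers that no 2 groups share. For hyperoxia in WT and over both genotypes, 1 member in place of 0 was called with DESeq2. Leaving out 1 mouse gave 0 to 1 called members in each of these, 1 being without GSD398, and 1 was called in WT without GSD398 and GSD496. Both scalings moved the median of all genes by less than 0.1 on the log2 scale.

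Members that were not called changed sign in some fits, and the cause was not tested. With library size only, Sgk1 was -0.0231 in KO-O2 vs WT-O2. With GSD408 as room air, WT-O2 vs WT-RA gave -0.034 for Fkbp5 and -0.00799 for Pdk4, KO-RA vs WT-RA gave -0.00351 for Plin4 and -0.0814 for Cdkn1a, and KO-O2 vs WT-O2 gave 0.0327 for Plin4. Without GSD398 and GSD496, WT-O2 vs WT-RA gave 0.15 for Tsc22d3 and 0.0472 for Plin4, KO-O2 vs KO-RA gave 0.0257 for Pdk4 and 0.0635 for Plin4, and KO-RA vs WT-RA gave 0.0878 for Sgk1 and -0.14 for Plin4. When each mouse was left out in turn, WT-O2 vs WT-RA ranged from -0.26 to 0.15 for Tsc22d3, -0.0168 to 0.252 for Sgk1, -0.053 to 0.145 for Pdk4 and -0.289 to 0.045 for Plin4. KO-O2 vs KO-RA ranged from -0.0976 to 0.0349 for Nr3c1, -0.0424 to 0.125 for Zbtb16, -0.184 to 0.0256 for Pdk4 and -0.817 to 0.0636 for Plin4. KO-RA vs WT-RA ranged from -0.337 to 0.0785 for Tsc22d3, -0.15 to 0.12 for Sgk1, -0.31 to 0.41 for Plin4 and -0.0113 to 0.203 for Cdkn1a. KO-O2 vs WT-O2 ranged from -0.0977 to 0.0193 for Nr3c1, -0.0667 to 0.0707 for Sgk1, -0.634 to 0.167 for Plin4 and -0.233 to 0.0435 for Cdkn1a. Depth limits Plin4 most, with 12 to 42 counts per library.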
